A study of Mus musculus with 8 samples.

Results

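The genes described here are those that trametinib shifted in opposite directions in different primary murine pancreatic ductal adenocarcinoma (PDAC) lines. They were selected on the values themselves. For each of lines #1, #3, #5 and #10, log2((trametinib + 1)/(DMSO + 1)) was taken from the normalized counts, and a gene was kept when it was at 1 or above in at least 1 line, at -1 or below in at least 1 other line, and had a mean of at least 50 over the 8 libraries. A log2 change of 1 is a 2-fold difference. After 12 predicted genes with Gm or AC numbers were left out, 53 genes remained. They are 0.427% of the 12424 genes with that mean and were drawn from a table of 34478 genes. Another 1356 genes moved oppositely at lower mean counts and were not taken up.

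The 4 lines are cultures from pancreatic tumours of genetically engineered mice whose alleles include Ptf1awt/Cre and Trp53loxP/loxP, so every library, controls included, comes from cells with floxed Trp53 alleles on which Cre from the Ptf1a locus acts. Ptf1a-driven Cre is active in pancreatic progenitors. Cells grew in high-glucose DMEM with fetal bovine serum, antibiotics and non-essential amino acids, and received either DMSO, the solvent control, or trametinib at each line's own IC50 for 48 h. The doses are not given in the sources used here, so the line and the dose it received cannot be told apart. Each line and treatment is 1 library of polyadenylated RNA, which leaves the change of a single line without a replicate. Since the same changes chose the genes, the changes below are a description and carry no test.

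Trametinib is an allosteric inhibitor of the kinases MEK1 and MEK2, which stand between RAF and ERK in the mitogen-activated protein kinase (MAPK) cascade. Active ERK phosphorylates ETS and AP-1 transcription factors and other nuclear targets, so blocking MEK lowers genes that ERK sustains and can raise genes that ERK holds down, among them genes of epithelial differentiation, extracellular matrix and receptor signalling.

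The reference promoters of 5 of the genes are shown first. They were picked with the motif matches in view from several patterns, with Aqp1 and Lepr of the same one, so these 5 do not stand for the rest. The most frequent pattern, line #3 higher and line #5 lower alone, is not among them, and a second window of Lepr, which held none of the motifs, is not printed. Each run is the 250 bases before a RefSeq transcription start (GRCm38.p6), 5′ to 3′ on the strand of the gene, in lower case. Capitals mark matches to any of 11 searched motifs. Col8a1, Aqp1 and Lepr were higher by 2-fold or more in line #3 and lower in line #5, Robo1 was higher in line #3 and lower in line #10, and Fxyd3 was higher in lines #1 and #3 and lower in line #5. The windows are chr16:57754738-57754987 on the minus strand (Col8a1), chr6:55336049-55336298 on the plus strand (Aqp1), chr4:101717157-101717406 on the plus strand (Lepr), chr16:72662899-72663148 on the plus strand (Robo1) and chr7:31076698-31076947 on the minus strand (Fxyd3). GENCODE M21 places the Col8a1 and Aqp1 windows between genes and the Robo1 window in an intron of Robo1, before an internal start. The Lepr and Fxyd3 windows share 3 and 7 bases with the first exon of their own gene.
Col8a1: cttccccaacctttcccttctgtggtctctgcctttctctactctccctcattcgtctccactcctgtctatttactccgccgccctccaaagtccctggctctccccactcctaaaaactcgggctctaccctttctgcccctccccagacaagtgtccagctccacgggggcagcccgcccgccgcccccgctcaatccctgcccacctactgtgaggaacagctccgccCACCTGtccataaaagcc
Aqp1: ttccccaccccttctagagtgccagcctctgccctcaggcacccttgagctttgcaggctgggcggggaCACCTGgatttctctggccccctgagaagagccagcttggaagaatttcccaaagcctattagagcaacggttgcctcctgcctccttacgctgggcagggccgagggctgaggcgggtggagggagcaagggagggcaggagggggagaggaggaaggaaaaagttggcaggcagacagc
Lepr: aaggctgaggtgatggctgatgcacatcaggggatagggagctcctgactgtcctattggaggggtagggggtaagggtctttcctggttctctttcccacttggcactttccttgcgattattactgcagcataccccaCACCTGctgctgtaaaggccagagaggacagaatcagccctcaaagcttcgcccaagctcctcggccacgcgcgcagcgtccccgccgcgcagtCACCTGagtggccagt
Robo1: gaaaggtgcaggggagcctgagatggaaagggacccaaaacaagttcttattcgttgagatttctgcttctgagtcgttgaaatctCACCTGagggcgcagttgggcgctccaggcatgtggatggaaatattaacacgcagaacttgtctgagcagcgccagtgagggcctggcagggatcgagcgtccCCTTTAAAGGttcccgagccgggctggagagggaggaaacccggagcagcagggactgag
Fxyd3: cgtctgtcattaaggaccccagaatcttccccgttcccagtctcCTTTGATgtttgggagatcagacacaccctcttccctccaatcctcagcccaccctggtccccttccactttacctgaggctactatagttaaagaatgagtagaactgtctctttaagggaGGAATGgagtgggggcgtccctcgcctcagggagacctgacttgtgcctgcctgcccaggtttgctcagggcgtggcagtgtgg

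In Col8a1, Aqp1 and Lepr the capitals are the E-box CAGGTG or its reverse complement CACCTG, which repressors of the ZEB and SNAI families recognise. It began 18 bases before the start in Col8a1, 181 in Aqp1, and 110 and 16 in Lepr. Robo1 held it 164 bases before the start and a CArG box, the serum response factor element, 60 bases before it. Fxyd3 held the TCF/LEF motif CTTTGAT at 206 bases and the TEAD motif GGAATG at 84 bases. Of the 53 genes, 35 had a promoter in the RefSeq table, 46 windows in all, and 12 of the 35 (34.3%) held the E-box on either strand, beside 17.9% of the 9319 genes that reach a mean of 50 and a window of that length. The number of windows per gene was 1.31 and 1.28. The ETS motif CCGGAAG was in 0 of the 35 and in 16.6% of all, and the AP-1 motif TGANTCA in 0 and in 5.49%. The hypoxia element ACGTG was in 14.3% and 25.5%, the TEAD motif in 14.3% and 12.9%, the TCF/LEF motif in 5.71% and 2.71%, and the RUNX motif TGTGGTT in 5.71% and 3.81%. The interferon-stimulated response element, the FOX motif TGTTTAC, the CArG box and the TATA box TATAAA were each in 1 of the 35 (2.86%), beside 3.00%, 2.71%, 1.40% and 7.59%. Both strands were searched, and the matches in the printed windows do not overlap each other. The median GC content was 60.6% and 60.0%. Matching letters are a description of these windows and not of binding. The comparison genes were not matched for level, with a median mean count of 1132 beside 126 for the 53 genes. As 18 of the 53 also had no window, nothing is read from the shares.

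The 8 libraries held 30680091 to 36385719 normalized counts. The step between low values put their depth at about 29296070 to 45952677 reads, so that 3 reads correspond to 2.33 to 3.73 normalized counts. In the fit across all genes (limma with the line as a block), 8416 of 15888 genes passed an adjusted p of 0.05 with the Benjamini-Hochberg method, 4341 higher and 4075 lower with trametinib. A list of 45 MAPK targets and feedback genes had 25 of its 41 tested members lower and 10 higher, and the median log2 change of those tested was -1.05, where the median of all genes tested was 0.072. The libraries of these ductal adenocarcinoma lines were examined for 12 ductal epithelial markers. The summed level of these markers in lines #1, #3, #5 and #10 was 292050, 281948, 361567 and 235442 with DMSO. With trametinib it was 239998, 126548, 217914 and 173875, lower in every line. Epcam, an epithelial adhesion protein among these markers, is listed at 0 in every library of lines #1, #5 and #10. A listed 0 may be a failed estimate, since 25 genes with a mean of at least 200 have one in some library. Against a 0 only the log2 change with 1 added to each value is given, and its size is set by the added count of 1.

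Markers of other cell types were set beside these genes, because several of them are known from mesenchymal, vascular or neural cells. The 12 fibroblast markers, of which Pdgfra is 1, summed to 2611 to 3055 normalized counts with DMSO and 2497 to 3253 with trametinib, and Lum was at 0 in all 8 libraries. The 11 endothelial markers measured summed to 583 to 1105 and 946 to 2324. Line #3 had both the lowest endothelial sum with DMSO (583) and the highest with trametinib (2324), while Emcn was listed at 0 in 6 of 8 libraries. The 10 macrophage and leukocyte markers measured were at 3112 to 6539 with DMSO and 1428 to 3844 with trametinib. Line #3 went from 6539 to 1428 and line #10 from 5095 to 1682, line #1 from 3112 to 2495 and line #5 from 3734 to 3844. The 12 Schwann and neural markers were at 3117 to 3750 with DMSO and 5525 to 8376 with trametinib, higher in all 4 lines, with Sox10 listed at 0 in 6 of 8 libraries. The 11 acinar markers measured summed to no more than 297 in any library. The part of these markers in the changes below was not tested.

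Line #3 stood against the others more often than any other line. It was higher by 2-fold or more for 37 of the 53 genes and lower for 8, where 16.8% and 16.7% of the 12424 genes that reach a mean of 50 were that far higher and lower. Line #5 showed the reverse balance, with 13 genes higher and 28 lower, beside 12.8% and 8.02% of all genes. In line #1, 16 were higher and 16 lower, beside 13% and 7.45%. In line #10, 12 were higher and 19 lower, beside 11.3% and 7.39%. Nothing is read from these shares, because passing the 2-fold mark in a line is what admitted a gene. The median log2 change over the 53 genes was -0.23 in line #1, 1.38 in line #3, -1.04 in line #5 and -0.38 in line #10, and that over the 12424 genes was between -0.04 and 0.02 in each line.

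**Figure D1:**
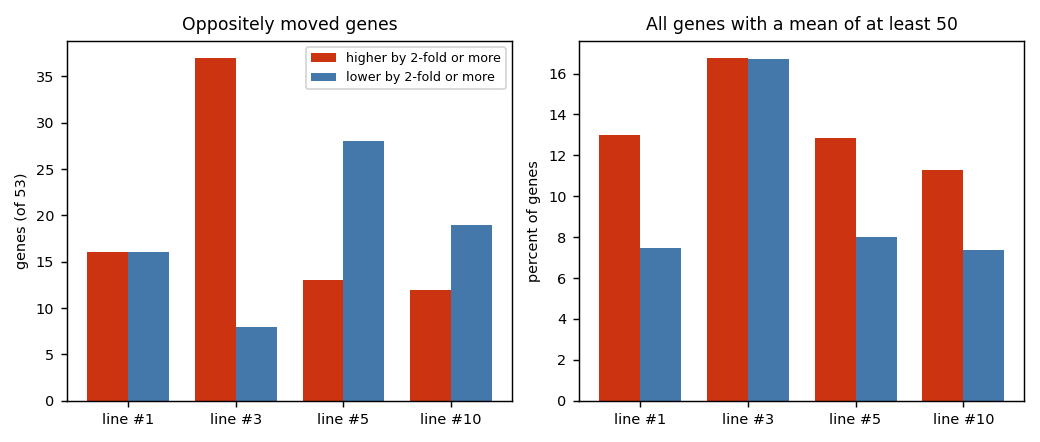
Genes higher (red) and lower (blue) by 2-fold or more with trametinib in each line, as a number of the 53 oppositely moved genes (left) and as a percentage of the 12424 genes that reach a mean of 50 (right). Line #3 is higher for 37 of the 53 and line #5 lower for 28, while over all genes line #3 is higher and lower to nearly the same extent (16.8% and 16.7%).

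Among pairs of lines, the most frequent was line #3 higher with line #5 lower, which held for 21 genes. Line #3 higher with line #10 lower followed with 18 genes and line #3 higher with line #1 lower with 13. The reverse pairs were rarer, with line #5 higher and line #3 lower in 6 genes, line #10 higher and line #3 lower in 5, and line #1 higher and line #3 lower in 2. A gene can count in several pairs. Line #3 was the single line that was 2-fold higher in 23 genes, line #5 the single line that was 2-fold lower in 18, and line #10 in 13. Past 2-fold in either direction were 2 lines for 22 genes, 3 lines for 19 and all 4 lines for 12.

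**Figure D2:**
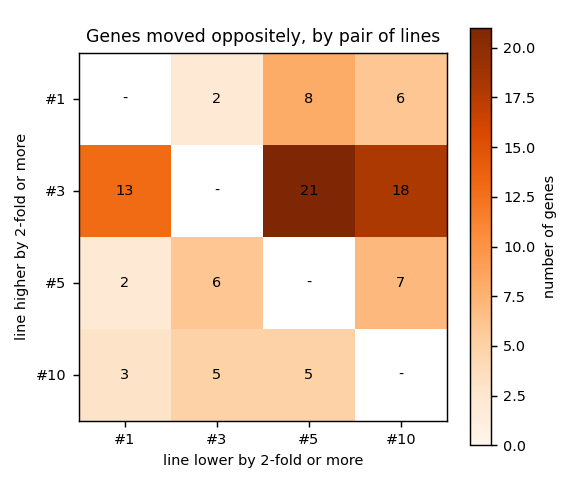
Number of the 53 genes that were higher by 2-fold or more in the line of the row and lower by 2-fold or more in the line of the column; a gene can count in several cells and the diagonal is empty. The row of line #3 holds 13, 21 and 18 genes, while its column holds 2, 6 and 5.

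The genes fell into 22 patterns of higher, lower and between over the 4 lines. The 2 most frequent were line #3 higher and line #5 lower alone (Pdgfra, B4galnt4, Hist1h2bg, Dok2, Wfdc2, Tfap2a and Adamts9) and line #3 higher with lines #1 and #5 lower (Amigo2, Plat, Rgs2, Lhfpl4, Aqp1 and Lepr). Col8a1, Ppp1r9a, Fam213a and Tgm1 were higher in line #3 and lower in all 3 other lines. The mirror image, lower in line #3 and higher in the other 3, was shown by Chn1 and Ugt2b36. Robo1, Sema6a and Pak3 were higher in lines #1, #3 and #5 and lower in line #10, and Fxyd3, Clic3 and Trpm2 were higher in lines #1 and #3 and lower in line #5. Prkaa1 was higher in line #5 and lower in the other 3 lines, Cldn34c1 was lower in line #5 and higher in the other 3, and Atp8a2 was lower in line #1 and higher in the other 3.

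**Figure D3:**
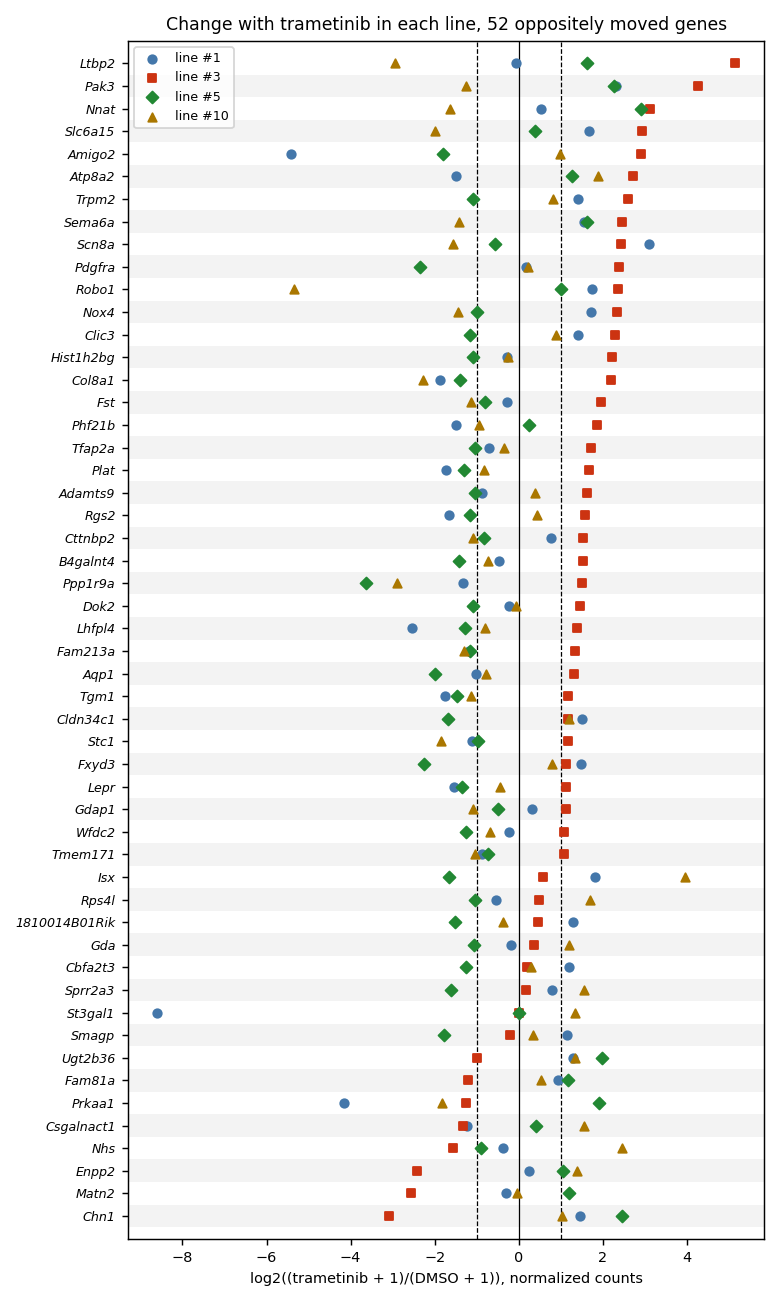
Log2((trametinib + 1)/(DMSO + 1)) of 52 of the 53 oppositely moved genes, 1 point per line, ordered by the change in line #3; dashed lines mark a 2-fold difference. Line #3 (red squares) lies to the right of 1 in 36 of these and line #5 (green diamonds) to the left of -1 in 28.

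**Figure D4:**
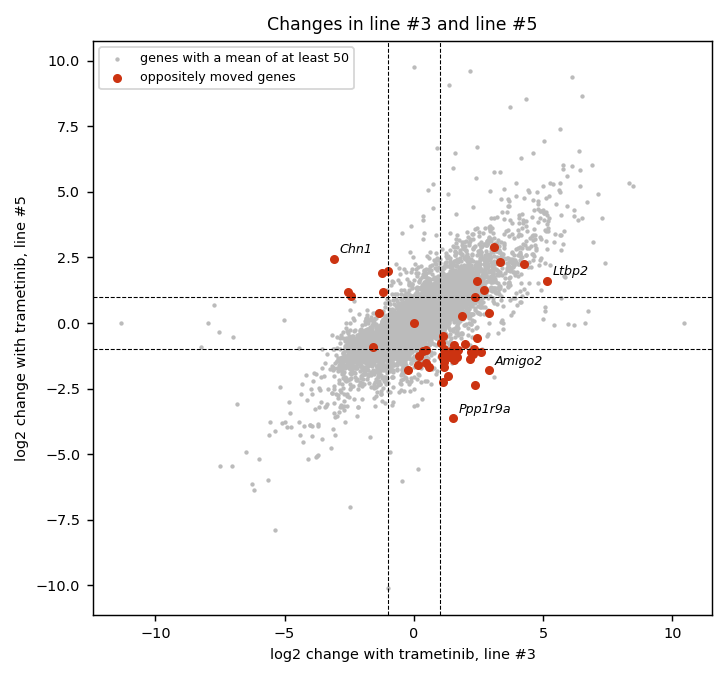
Log2 change with trametinib in line #3 (x axis) and line #5 (y axis) for the 12424 genes that reach a mean of 50 (grey), with the 53 oppositely moved genes in red and dashed lines at a 2-fold difference. The lower right corner, higher in line #3 and lower in line #5, holds 21 of the 53 and the upper left corner 6.

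In the accounts that follow, 4 values in a row are those of lines #1, #3, #5 and #10 in this order, levels are normalized counts, which are not scaled to gene length, and changes are log2 with 1 added to each value. The grouping by role was made after the genes were known. Nothing is read from the counts within a group, since the genes were chosen on these same changes.

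Genes of neuronal guidance, adhesion and the synapse formed 1 of the 2 largest groups, with 9 members. Of these, 8 were higher by 2-fold or more in line #3, beside 37 of the 53 genes and 16.8% of all 12424. In line #10, 6 were lower, beside 19 of the 53 and 7.39% of all. Robo1, the receptor through which Slit ligands repel axons and migrating cells, lies at chr16:72308306-73046095, plus strand. Its levels were 143, 252, 464 and 39.4 with DMSO and 481, 1305, 930.2 and 0 with trametinib. Lines #1, #3 and #5 were higher with trametinib, by 1.74, 2.37 and 1.00, whereas line #10, the lowest with DMSO, was listed at 0. The related receptor Robo2, which is not among the 53, was higher with trametinib in all 4 lines, from 1.61 to 6.87 in line #10. Sema6a, a transmembrane semaphorin, was at 31.3, 249.9, 99.8 and 23.2 with DMSO and 94.2, 1367, 307 and 7.98 with trametinib. Its changes of 1.56, 2.45, 1.61 and -1.43 had the same order of signs as those of Robo1. Pak3, a kinase activated by Rac and Cdc42 that shapes the actin cytoskeleton, followed them with 134, 5.96, 204 and 20.1 with DMSO and 674, 131, 987 and 7.78 with trametinib, which are changes of 2.32, 4.25, 2.27 and -1.26.

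Chn1, a chimaerin that switches Rac off downstream of ephrin receptors (chr2:73610660-73775346, minus strand), went the other way in line #3. It was at 38, 32.4, 12.1 and 75.7 with DMSO and 105, 2.94, 70.6 and 155 with trametinib. Lines #1, #5 and #10 were thus higher by 1.44, 2.45 and 1.03, and line #3 was lower by 3.08 on the log2 scale, down to about 3 reads. Ppp1r9a, which encodes neurabin, an actin-binding scaffold of protein phosphatase 1, was at 368, 252, 141 and 228 with DMSO and 147, 719.8, 10.5 and 29.8 with trametinib. Line #3 was the highest of the 4 with trametinib although line #1 had been the highest with DMSO, and the changes were -1.32, 1.51, -3.63 and -2.89. Amigo2, a leucine-rich repeat adhesion protein, was at 41.9, 43.7, 2.48 and 0 with DMSO and 0, 333, 0 and 0.962 with trametinib. Lines #1 and #3 were nearly level with DMSO, and with trametinib line #3 alone was above 1 normalized count. Nnat, the imprinted proteolipid neuronatin, was at 1.49, 42.7, 0 and 2.12 and 2.6, 378, 6.44 and 0, so its level outside line #3 never exceeded 6.44. Cttnbp2, a cortactin-binding protein of dendritic spines, and Lhfpl4, a partner of GABA-A receptors, completed the group, with log2 changes in line #3 of 1.54 and 1.38 and the lowest changes at -1.10 in line #10 and -2.54 in line #1.

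Matrix and secreted proteins were the other group of 9. Of these, 7 were higher by 2-fold or more in line #3, beside 37 of the 53 genes and 16.8% of all 12424. Ltbp2, a microfibril protein of the latent TGF-beta binding protein family (chr12:84783212-84876532, minus strand), had the largest opposition of all 53 genes, counted as the smaller of its largest log2 rise and largest log2 drop. It was at 29.1, 1.99, 93.1 and 122 with DMSO and 27.8, 105, 288 and 15 with trametinib. Line #10 held the most Ltbp2 with DMSO and the least with trametinib, line #3 the least with DMSO, and the changes were -0.06, 5.15, 1.62 and -2.95. Col8a1, a short-chain collagen of basement membranes and vessel walls (chr16:57624258-57754737, minus strand), was at 324, 126, 70.8 and 78.7 with DMSO and 88.2, 574, 26.4 and 15.4 with trametinib. Line #3 was the only one of the 4 that was higher, at 2.18, and the others were lower at -1.87, -1.39 and -2.28.

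Plat, the tissue plasminogen activator (chr8:22757727-22782844, plus strand), was among the most abundant members. Its levels were 13134, 1787, 11231 and 5787 with DMSO and 3955, 5659.6, 4564 and 3269.9 with trametinib. With DMSO line #3 was the lowest of the 4 and with trametinib the highest, and the 4 lines, which spanned 7.35-fold with DMSO, spanned 1.73-fold with trametinib. The counts behind Plat were large enough that the 95% exact binomial intervals of the log2 ratio, which cover counting error only, were -1.78 to -1.68 in line #1 and 1.59 to 1.74 in line #3. Adamts9, a metalloproteinase that cleaves versican, was at 499, 186, 503 and 331 and 271, 571, 244 and 433, again with line #3 lowest with DMSO and highest with trametinib. Fst, which encodes follistatin, the secreted antagonist of activins, was at 52.6, 74.4, 69.2 and 27.6 and 43.4, 293, 39 and 11.9. Line #3 was higher by 1.96, and line #10 was lower, at -1.14. Matn2, a filament-forming matrilin, had the opposite sense, at 66.7, 164, 12.4 and 136 and 53.9, 27.1, 29.6 and 132, with line #3 the highest with DMSO and the lowest with trametinib.

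Enpp2, or autotaxin, the secreted enzyme that makes lysophosphatidic acid, was picked out once its values were known. It was at 84.4, 339.8, 113 and 19.7 with DMSO and 101, 62.3, 235 and 52.9 with trametinib, lower in line #3 and higher by 2-fold or more in lines #5 and #10. The 2 remaining secreted members, Stc1 (stanniocalcin) and Wfdc2 (a whey acidic protein family member of ductal secretions), were higher in line #3 by 1.16 and 1.07 and lowest at -1.85 in line #10 and -1.25 in line #5. In line #3 Wfdc2 was at 167 and 352 normalized counts, whereas each of the other lines held at least 5474.

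**Figure D5:**
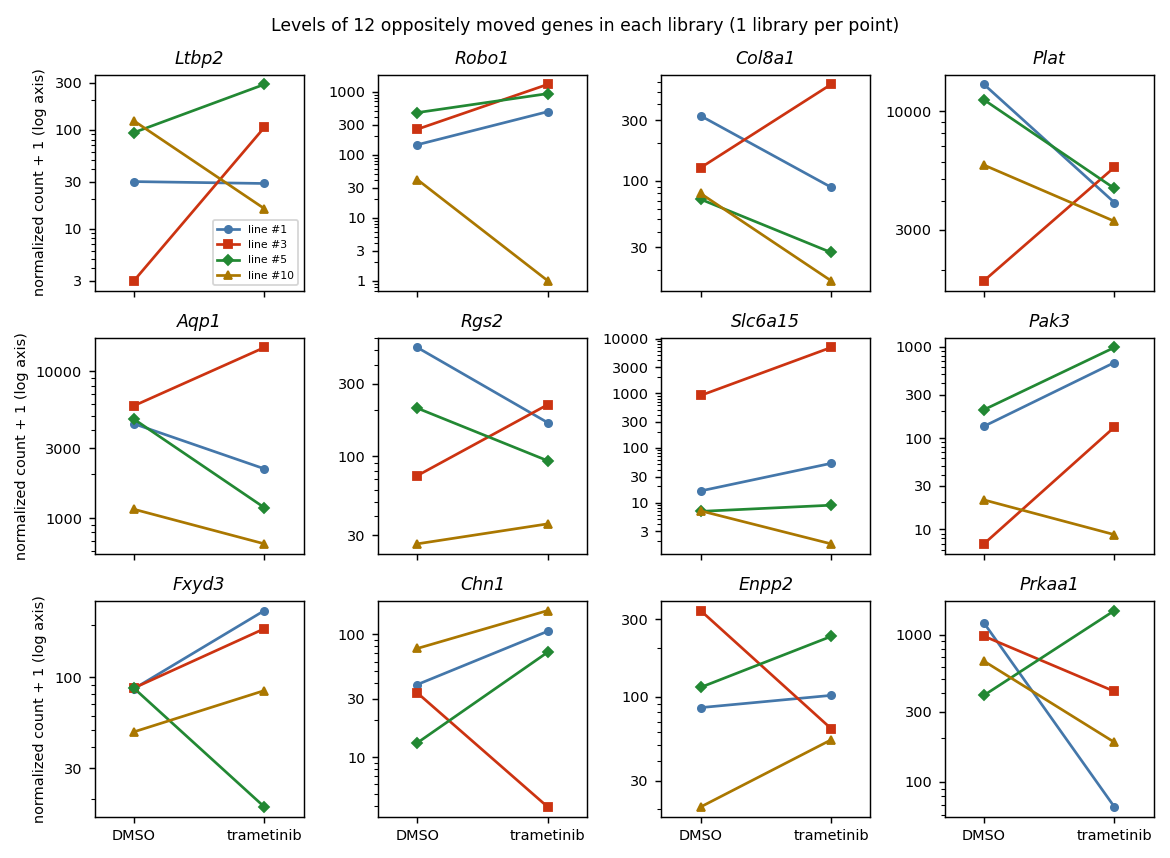
Normalized counts plus 1 (log axis) with DMSO and with trametinib for 12 of the 53 genes, 1 point per library and 1 line of colour per cell line, with a different scale in each panel. Col8a1, Plat and Aqp1 are higher with trametinib in line #3 and lower in lines #1, #5 and #10, and Chn1 and Enpp2 are lower in line #3 and higher in the others.

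Receptors and intracellular signalling proteins numbered 5, of which 4 were higher by 2-fold or more in line #3 and 4 lower in line #5. Of the 53 genes, 37 were that far higher in line #3 and 28 that far lower in line #5. The shares of all 12424 genes were 16.8% and 8.02%. Pdgfra, a receptor tyrosine kinase for platelet-derived growth factors that feeds into the MAPK cascade (chr5:75152292-75198215, plus strand), was at 37.5, 9.96, 105 and 61.1 with DMSO and 42.2, 56.1, 19.6 and 71.2 with trametinib. Lines #1 and #10 differed little between treatments, at 0.16 and 0.22, while line #3 was at 2.38 and line #5 at -2.36. Rgs2, which ends signalling from Gq-coupled receptors, was at 521, 73.1, 206 and 25.3 and 165, 218, 92 and 34.6. Line #1 had the most Rgs2 with DMSO and line #3 with trametinib. Prkaa1, the catalytic alpha 1 subunit of the energy sensor AMPK (chr15:5143861-5181899, plus strand), was at 1198, 975, 386 and 659 with DMSO and 66.7, 411, 1454 and 185 with trametinib. Line #5 had the least with DMSO and the most with trametinib, and line #1 the reverse. The counting intervals of its log2 ratio were -4.55 to -3.82 in line #1 and 1.74 to 2.09 in line #5. Prkaa2, the other catalytic subunit, had changes of 0.88, -1.08, -0.10 and -0.03. The 2 subunits thus had opposite signs in line #1 and, with Prkaa2 near 0, in line #5. Lepr, the leptin receptor, and Dok2, an adaptor that recruits RasGAP, were higher in line #3 by 1.12 and 1.45 and lower in line #5 by -1.35 and -1.08.

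All 8 channels and transporters were higher by 2-fold or more in line #3. In that line, 37 of the 53 genes and 16.8% of all 12424 were that far higher. Slc6a15, a sodium-dependent carrier of neutral amino acids (chr10:103367783-103419377, plus strand), was at 15.4, 910.4, 5.93 and 6.09 with DMSO and 51.3, 6888, 7.98 and 0.766 with trametinib. Line #3 exceeded every other line more than 50-fold in each treatment, and the drop in line #10 rests on 6 reads and 1 read. Aqp1, the water channel aquaporin 1 (chr6:55336432-55348555, plus strand), picked out once its values were known, stood at 4399, 5835, 4730.3 and 1151 with DMSO and 2170.4, 14559, 1179.8 and 669 with trametinib. The 4 lines spanned 5.07-fold with DMSO and 21.8-fold with trametinib, and line #3 was the highest in both treatments.

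Fxyd3, a small regulator of the sodium pump (chr7:31068172-31076704, minus strand), had levels of 84.9, 85.7, 85.5 and 47.6 with DMSO and 239.7, 189, 17.1 and 82.8 with trametinib. Lines #1, #3 and #5 stood within 1 normalized count of each other with DMSO, and with trametinib line #5 was the lowest and lines #1 and #3 the highest. Scn8a, a voltage-gated sodium channel, was at 0.604, 0.65, 25.6 and 341 and 12.8, 7.94, 17 and 114, so its higher values in lines #1 and #3 start from 1 read. Atp8a2, a phospholipid flippase, was at 89.7, 28.4, 8.05 and 20.1 and 31.1, 190.4, 20.7 and 76.5. Line #1 had the most with DMSO and line #3 with trametinib. Clic3, an intracellular chloride channel protein, and Trpm2, a calcium-permeable channel gated by ADP-ribose, shared the pattern of Fxyd3, with changes in line #5 of -1.17 and -1.10 and in line #3 of 2.29 and 2.60.

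The 4 epithelial and barrier genes were all lower by 2-fold or more in line #5. In that line, 28 of the 53 genes and 8.02% of all 12424 were that far lower. Nothing is read from the count of 4, since the genes were chosen on these changes. Tgm1, the transglutaminase that cross-links the cornified envelope, was at 75.5, 47.4, 68.3 and 61.3 with DMSO and 21.8, 108, 24 and 27.3 with trametinib. Line #3 had the least Tgm1 with DMSO and was the single line above 28 with trametinib. Sprr2a3, a small proline-rich substrate of such cross-linking, was at 83.1, 14.6, 63.8 and 17.7 and 143, 16.7, 20.3 and 53.6, higher in line #10 and lower in line #5. Near-identical neighbours may share reads with it, which was not tested. In line #10, Sprr2a1 and Sprr2a2 were also higher with trametinib, at 23.1 against 8.63 and at 117 against 83.6, while Sprr2h was at 227 with DMSO and is listed at 0 with trametinib. Cldn34c1, a member of the claudin family of tight junction proteins, was at 54.6, 116, 13.6 and 65.1 and 157, 264, 3.54 and 149.6. Smagp, a small transmembrane adhesion glycoprotein, was higher in line #1 by 1.13 and lower in line #5 by -1.79.

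Enzymes made up 2 further groups. Of the 3 glycan-building enzymes, St3gal1, a sialyltransferase that caps O-glycans, was also named with its values in view. It was at 388, 0, 0 and 102 with DMSO and 0, 0, 0 and 258 with trametinib, so that 5 of 8 libraries list it at 0, although none of the family members St3gal2 to St3gal6 is at 0 in any library. B4galnt4, which builds LacdiNAc, and Csgalnact1, which starts chondroitin sulfate chains, had changes of -0.48, 1.53, -1.42 and -0.74 and of -1.23, -1.34, 0.40 and 1.54. Of the 5 redox and metabolic enzymes, Fam213a, a peroxiredoxin-like protein, was at 5661, 6005, 2433 and 5156 with DMSO and 2504, 15034, 1078 and 2099.7 with trametinib. Lines #1, #5 and #10 were lower by nearly the same amount, -1.18, -1.17 and -1.30, and line #3 was higher by 1.32. Ugt2b36, a glucuronosyltransferase, was at 9.08, 87.8, 13.4 and 60.4 and 23.8, 43.2, 55.6 and 155. Its neighbour Ugt2b35, with which reads may be shared, had changes of 1.16, -0.46, 0.66 and 1.19, the same signs at a smaller size. Nox4, an NADPH oxidase that makes hydrogen peroxide, and Gdap1, a mitochondrial fission factor, had changes of 1.71, 2.34, -0.98 and -1.45 and of 0.30, 1.12, -0.49 and -1.09. Gda, the guanine deaminase, named with its values in view, was at 160.4, 1288, 217 and 86.6 and 140.0, 1646, 103 and 200.1, with line #3 the highest in both treatments.

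The 5 nuclear proteins included none that was lower by 2-fold or more in line #3 and 4 that were lower in line #5. Of the 53 genes, 8 were that far lower in line #3 and 28 in line #5. The shares of all 12424 genes were 16.7% and 8.02%. Isx, an intestinal homeobox factor, was at 0.682, 614, 2.18 and 0 with DMSO and 4.92, 920.4, 0 and 14.5 with trametinib. It was abundant in line #3 in both treatments and was at most 14.5 elsewhere. Isx thus reached the mean of 50 through line #3, whose change of 0.58 was under 2-fold. Its opposed changes lay in lines #1, #5 and #10, at 1 and 5, 2 and 0, and 0 and 15 reads with DMSO and trametinib. Phf21b, a PHD finger protein, was at 34.4, 27.8, 58.8 and 62.3 and 11.7, 103, 70.2 and 32. Line #3 had the least with DMSO and the most with trametinib. Hist1h2bg, a histone H2B gene with near-identical copies, had a change of 2.21 in line #3 and -1.09 in line #5, while the sum over the 14 Hist1h2b genes measured had changes of 1.14, 1.10, 0.09 and 1.25. Tfap2a and Cbfa2t3, a transcription factor and a corepressor, were lower in line #5 by -1.04 and -1.25. Among the 5 other genes, Nhs, an actin regulator, was at 119, 258, 84.6 and 0 and 91.6, 86.3, 44.7 and 4.49. Tmem171 was at 1449, 401, 1075 and 985 and 790.2, 838, 641 and 479.7, with changes of -0.87, 1.06, -0.75 and -1.04. Rps4l is annotated as a processed pseudogene of Rps4x, whose own level was lower with trametinib in all 4 lines, and 1810014B01Rik overlaps exons of Hsp90b1 on the other strand. Fam81a had changes of 0.94, -1.20, 1.17 and 0.52.

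Of 23 functional gene lists, 5 held any of the 53 genes. The other 18, which include interferon-stimulated genes, MAPK targets, growth factor receptors, proliferation genes and cholesterol synthesis, held 0. Pdgfra, itself a growth factor receptor, was placed in the mesenchymal list and not in that of growth factor receptors. With 0.427% of the genes that reach a mean of 50 chosen, lists of such sizes are likely to hold 0, so nothing is read from their 0. In limma, the collagen and matrix list that holds Col8a1 and Matn2 had 31 of 51 tested genes higher with trametinib and 7 lower, with a median log2 change of 1.19. The list of matrix proteases and inhibitors with Adamts9 and Plat had 15 of 32 higher and 3 lower (median 0.88), and that of TGF-beta, BMP and SMAD genes with Fst and Ltbp2 had 22 of 35 higher and 3 lower (median 0.85). The axon guidance list with Sema6a and Robo1 had 27 of 54 higher and 6 lower (median 0.63), and the mesenchymal list with Pdgfra had 4 of 15 higher and 3 lower (median 0.10). The median over all genes tested was 0.072. Over all genes tested 4341 of 15888 were higher and 4075 lower. That no member of these lists among the 53 was called follows from the selection.

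In that fit 0 of the 53 genes passed an adjusted p of 0.05, where 53% of all genes tested did. At an unadjusted p under 0.05 it had 1 of the 53 higher, Pak3, and 0 lower. Of all 15888 genes tested, at least the 8416 that passed the adjusted threshold reach this mark, since an adjusted p is never below the unadjusted one. Pak3 had a log2 change of 1.89 with a standard error of 0.79 and an adjusted p of 0.0825, and it was higher in 3 of 4 lines. A gene that moves both ways averages toward 0 with a wide error, so the count follows from the selection. The same holds when a line is left out, since the remaining lines of many of these genes share a direction by the choice of the genes, and the following counts are a description that supports nothing. Without line #3, limma called 16 of the 53, among them Col8a1, Plat, Aqp1, Lepr, Ppp1r9a, Fam213a, Chn1 and Enpp2, and 8202 of all genes. It called 6 of the 53 and 6747 of all genes without line #10, 5 and 6748 without line #5, and 1 and 6784 without line #1.

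The 53 genes had low levels, with a median mean of 126 beside 1132 for the 12424 genes, and 22 had a mean under 100. Counting error was therefore set beside each change as a 95% exact binomial interval of the ratio of the reads behind it, which covers counting error only. Of 149 line changes of 2-fold or more, 139 had an interval that left out 0 and 79 one that lay wholly beyond 2-fold. For 46 genes both a rise and a drop left out 0, and for 16 both lay beyond 2-fold. In 12 of these the lines concerned also held at least 50 normalized counts in 1 of their libraries, namely Ltbp2, Pdgfra, Col8a1, Prkaa1, Plat, Rgs2, Ppp1r9a, Fxyd3, B4galnt4, St3gal1, Aqp1 and Fam213a. The drop of St3gal1 among these is to a listed 0, and a failed estimate is not covered by a counting interval. The 7 genes without a rise and a drop that left out 0 were Slc6a15, Isx, Nnat, Nhs, Trpm2, Rps4l and Tfap2a, and 8 genes were listed at 0 in some library.

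Near the threshold from inside were Tmem171 at an opposition of 1.04 and Ugt2b36 at 1.01, and nearest from outside Paqr6 at 0.99, Acer2 at 0.98 and Dab2 at 0.98. The median opposition was 1.33, with 7 genes at 2 or above and 17 at 1.5 or above.

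The levels with DMSO enter the changes that chose the genes, and the genes had lower levels than most, so the spread between lines is a description. The standard deviation of log2(value + 1) over the lines had a median of 1.31 with DMSO and 1.69 with trametinib, beside 0.28 and 0.34 over all 12424 genes. It was larger with trametinib in 32 of the 53 (60.4%) and in 61.3% of all genes. The line with the steepest rise and the line with the steepest drop crossed in 28 genes, as for Plat and Prkaa1, moved apart in 18, as for Aqp1 and Robo1, and drew nearer in 7, as for Scn8a and Enpp2. The highest line was another with trametinib than with DMSO in 23 genes (43.4%), beside 41.9% of all genes. Line #3 was the highest of the 4 in 20 genes with DMSO and in 28 with trametinib.

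Of the 51 protein-coding members, no 2 were adjacent on a chromosome, and the closest were Smagp and Scn8a, 233 kb apart on chromosome 15. Chromosome 15 held 8 members, or 1.71% of its genes that reach a mean of 50, chromosome 14 held 5 (1.27%), chromosome X 4 (1.07%) and chromosome 6 held 6 (1.00%), beside 0.427% over all chromosomes. Chromosomes 11 and 17, with 995 and 587 such genes, held 0. Exons of 3 members overlapped another gene on the same strand and those of 17 on the other strand, which the stranded library kit can tell apart if the counting used strand. Amigo2 overlaps Pced1b on the other strand, and Pced1b had 4.15 normalized counts with DMSO and 49.6 under trametinib in line #3, and 24.8 and 14.7 in line #1, the same signs as Amigo2 in these lines. Chn1os3, which overlaps Chn1 on the other strand, was higher with trametinib in all 4 lines, as Chn1 was in lines #1, #5 and #10. In line #3, where Chn1 was lower, Chn1os3 was at 46.1 against 17.5. Nupl1, which overlaps Atp8a2 on the same strand, and Hsp90b1 were lower with trametinib in all 4 lines, and Lgi4, which overlaps Fxyd3 on the other strand, was at most 6.29 in any library. Whether reads were shared between these genes and the members was not tested.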

How the data were processed

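Stranded mRNA libraries of 4 lines with DMSO and with trametinib were sequenced by the authors, who deposited 1 table of normalized counts per gene, a signal already scaled between libraries. The submitters' processing notes name CASAVA 2.17, Salmon 0.12, DESeq2 1.18 and the build mm10. All 8 columns were matched to libraries by name.

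Genes were chosen by the stated rule on log2((trametinib + 1)/(DMSO + 1)). The rule, the gene lists, the motifs and the role groups were chosen with earlier results of these data known. Genes given with their values were the 20 with the largest opposition, those past 2-fold in all 4 lines, those in a functional list, and the 3 nearest to the threshold on each side, those outside by their opposition alone. No 2 of them were neighbours, and the other members are given by changes or named, except Aqp1, Enpp2, St3gal1, Gda and Wfdc2, given with their values after these were seen. Single levels of Cbfa2t3, Hist1h2bg, Lhfpl4, Tfap2a, Cttnbp2 and Trpm2 are also printed where 1 line stood apart. Of the 53 genes, 1 is counted but not reported by name here, and 1 allele of the mouse model is not reported.

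limma 3.58.1 (R 4.3.3) was run on log2(value + 1) with the line as a block and a mean-variance trend, for genes with a mean of at least 10, with Benjamini-Hochberg adjustment at 0.05, and was tested on simulated data first. Libraries of a number come from the same cell line, and their deviations from the group means correlated at 0.63 to 0.72. Its p-values set the mean change with trametinib against how far that change differed between the 4 lines, with variances moderated over all genes tested. Reads behind a value were estimated as the value divided by the step between low values of its library, at which 57.5% to 68.0% of low values were whole within 0.05. Promoters came from RefSeq (GRCm38.p6), positions from GENCODE M21. Alternatives were other scalings, pseudocounts, filters and thresholds, no block, and leaving out each line.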

Additional observations from a re-analysis of the deposited data

Results flagged for a closer look

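In each treatment, and in the changes, the 4 lines of 52 of the genes were searched for 1 line that lay far from the other 3 (a gap to its nearest neighbour, as a share of the range of the 4, above Dixon's 95% critical value). Of 156 groups of 4 values, 29 held such a line, and in 20 of the 29 it was line #3. The critical value flags about 1 in 20 groups by chance for normally distributed values, which normalized counts are not, and the genes were selected on these same values, so no excess over chance is read from the count. Lines with opposite directions are not listed for that alone, and the changes given last are among the values that chose the genes.

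With DMSO, line #3 stood apart at 614 normalized counts of Isx (next line 2.18), 910.4 of Slc6a15 (15.4), 1288 of Gda (217), 443 of Cbfa2t3 (118) and 42.7 of Nnat (2.12), and below the others at 17.3 of Hist1h2bg (130.2). Line #5 stood apart at 868 of Lhfpl4 (30.1) and 407 of Tfap2a, and line #10 at 341 of Scn8a (25.6) and, below the others, at 47.6 of Fxyd3 (84.9).

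With trametinib, line #3 stood apart at 15034 of Fam213a (next line 2504), 14559 of Aqp1 (2170.4), 6888 of Slc6a15 (51.3), 1646 of Gda (200.1), 1143 of Cttnbp2 (138), 920.4 of Isx (14.5), 574 of Col8a1 (88.2), 378 of Nnat (6.44), 333 of Amigo2 (0.962), 312 of Trpm2 (15.7), 293 of Fst (43.4) and 108 of Tgm1 (27.3). Line #5 stood apart at 356 of Lhfpl4 (22.7), and line #10 at 114 of Scn8a (17.0) and 258 of St3gal1, which is listed at 0 in the other 3.

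Among the log2 changes, line #3 stood apart at 1.32 in Fam213a (next line -1.17) and 1.06 in Tmem171 (-0.75), line #5 at -1.68 in Cldn34c1 (1.17) and line #1 at -8.60 in St3gal1 (0). The last value is set by the added count of 1, since its trametinib level is listed at 0.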

How the results depend on the processing

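The choice of 53 genes depended on the filter and the threshold. A minimum mean of 10 gave 265 genes and of 200 gave 19, and a log2 change of 0.8 gave 102 and of 1.5 gave 17. Leaving out 1 line gave 19 to 50 genes, and of the 53 there remained 45 without line #1, 18 without line #3, 29 without line #5 and 31 without line #10. Rescaling the libraries to equal totals gave 49 genes, quantile normalization 70, centring on the median change 54 and pseudocounts of 0.1 and 5 gave 57 and 40, with 41, 40, 52, 53 and 40 of the 53 among them, and 25 of the 53 met the rule under all 5. Of 745 line changes recomputed under these, 0 reversed. Only changes of 2-fold or more were recomputed, and a pseudocount cannot turn the sign of a change, so nothing is read from this 0. The size of changes that rest on few reads moved with the pseudocount, as for Isx, Nhs and Nnat. Lepr, whose promoter is printed, no longer met the rule under quantile normalization, where its line #3 change was 0.52 in place of 1.12. Dok2 no longer met it after rescaling to equal totals. With a minimum mean of 10 and of 200, the genes that were 2-fold higher numbered 2494 and 1043 in line #1, 3283 and 1380 in line #3, 2564 and 1000 in line #5, and 2291 and 904 in line #10, and those 2-fold lower in line #1 with a mean of 10 numbered 1406. Without the replicate block, limma called 4552 of all genes in place of 8416 and again 0 of the 53. With the block, leaving out 1 line, it called 1 to 16 of the 53 and 6747 to 8202 of all genes at an adjusted p of 0.05, and under the other scalings, pseudocounts and no filter on low values 0. Depth limits Slc6a15, Isx, Nnat, Nhs, Trpm2, Rps4l and Tfap2a, in which a change in 1 of the directions rests on few reads.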
